A study of Mus musculus with 32 samples.

Results

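The proinflammatory cytokines of the interleukin-1 (IL-1), tumor necrosis factor (TNF) and interleukin-6 (IL-6) families, with the anti-inflammatory cytokine IL-10, were examined as a set of 10 genes: Il1a, Il1b, Il1rn, Il1r1, Il18, Il33, Il6, Il10, Tnf and Lif. The members were chosen by name, with earlier results of these data known. All 10 were found by Ensembl identifier among the 32285 genes of the count table. RNA was sequenced from 32 whole bladders of female C57BL/6 mice in 6 groups. Young (2 months, n = 6), middle-aged (10 months, n = 5) and untreated old (26 months, n = 6) mice received no gavage. The 3 gavaged groups were also 26 months old and were treated from 21 to 26 months of age, on 3 days in a row at each monthly round, with water (n = 5), with vehicle (n = 4; 60% Phosal 50 PG, 30% polyethylene glycol and 10% ethanol) or with D+Q (n = 6), which is dasatinib at 5 mg/kg/day plus quercetin at 50 mg/kg/day dissolved in the vehicle. Dasatinib is a tyrosine kinase inhibitor and quercetin a plant flavonoid, and their combination is used as a senolytic, a treatment meant to remove senescent cells. All groups were of the same sex and strain, so the data hold no males and no other strain.

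IL-1α, IL-1β and TNF are the classic early inflammatory cytokines. IL-1α and IL-1β bind the receptor encoded by Il1r1 and signal through MyD88 and NF-κB, while the antagonist encoded by Il1rn occupies the same receptor without signaling. IL-18 and IL-33 are relatives of IL-1 with receptors of their own. IL-18 and IL-1β need cleavage by caspase-1 in the inflammasome, and IL-33 is kept in the nucleus of epithelial and stromal cells and is released on damage. IL-6 and leukemia inhibitory factor (encoded by Lif) both signal through the gp130 receptor chain and STAT3. IL-10 is released by macrophages and lymphocytes and restrains the same inflammatory genes. In the bladder, urothelium, stroma and resident macrophages are all known sources of such cytokines, as in cystitis.

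The DNA just upstream of the genes is shown for 4 of the 5 members whose transcripts turned out higher in old bladders (Tnf, Il1b, Il18 and Il33), and for Il6, whose transcript stayed near the detection floor. The sequences are the 250 bases before the RefSeq transcription start of each gene on GRCm38.p6, read 5′ to 3′ on the strand of the gene, with every match to a searched motif in capitals. The motifs, searched on both strands, were kB (bound by NF-κB: GGG and TTCC with NNN between them), AP-1 (TGANTCA), C/EBP (TTGCNNAA), PU.1 (GAGGAA) and the TATA box (TATAAA). Il33 has 2 starts in the table, and both are shown. The table held 9 of the 10 members and no entry for Il10.
Tnf, chr17:35202008-35202257, minus strand: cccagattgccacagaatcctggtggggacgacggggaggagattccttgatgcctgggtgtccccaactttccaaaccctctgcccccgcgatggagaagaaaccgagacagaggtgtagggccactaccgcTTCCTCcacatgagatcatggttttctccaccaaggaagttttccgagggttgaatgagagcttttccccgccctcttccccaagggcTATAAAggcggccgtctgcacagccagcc
Il1b, chr2:129371140-129371389, minus strand: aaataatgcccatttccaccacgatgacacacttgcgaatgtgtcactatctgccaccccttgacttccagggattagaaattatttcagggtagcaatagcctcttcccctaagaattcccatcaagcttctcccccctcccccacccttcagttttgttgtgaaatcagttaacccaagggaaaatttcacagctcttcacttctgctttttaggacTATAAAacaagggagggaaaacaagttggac
Il18, chr9:50554450-50554699, plus strand: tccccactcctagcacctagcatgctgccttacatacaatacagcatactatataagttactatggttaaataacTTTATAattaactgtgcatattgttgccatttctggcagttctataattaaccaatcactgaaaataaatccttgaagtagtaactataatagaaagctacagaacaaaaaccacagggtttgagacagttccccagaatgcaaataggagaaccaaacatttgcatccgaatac
Il33, first start, chr19:29924863-29925112, plus strand: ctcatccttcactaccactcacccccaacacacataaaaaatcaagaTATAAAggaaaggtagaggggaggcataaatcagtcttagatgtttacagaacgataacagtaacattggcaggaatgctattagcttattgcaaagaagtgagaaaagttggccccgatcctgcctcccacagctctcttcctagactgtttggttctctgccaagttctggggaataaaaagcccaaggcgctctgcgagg
Il33, second start, chr19:29945540-29945789, plus strand: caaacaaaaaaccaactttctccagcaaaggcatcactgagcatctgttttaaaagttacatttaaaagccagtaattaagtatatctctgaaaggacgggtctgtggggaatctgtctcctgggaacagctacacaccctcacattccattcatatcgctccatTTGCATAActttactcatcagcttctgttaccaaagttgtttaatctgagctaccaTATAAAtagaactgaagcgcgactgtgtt
Il6, chr5:30012864-30013113, plus strand: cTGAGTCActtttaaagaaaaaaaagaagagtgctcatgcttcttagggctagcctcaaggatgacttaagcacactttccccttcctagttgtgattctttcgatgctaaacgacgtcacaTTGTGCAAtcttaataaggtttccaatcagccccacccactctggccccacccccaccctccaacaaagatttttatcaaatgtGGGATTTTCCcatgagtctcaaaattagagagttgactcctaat
Tnf held a TATA box 29 to 24 bases before its start and a PU.1 match on the opposite strand 117 to 112 bases before it. Il1b held a TATA box 31 to 26 bases before its start and no match to the other 4 motifs in this window. The window of Il18 held a single TATA box match, on the opposite strand and far from the start, at 175 to 170 bases. The second start of Il33 was preceded by a TATA box at 29 to 24 bases and a C/EBP match at 85 to 78 bases, whereas the first start had a TATA box match only at 203 to 198 bases. Il6 held a kB match at 44 to 35 bases, a C/EBP match at 128 to 121 bases and an AP-1 match at 249 to 243 bases, the only one of these 6 windows with either a kB or an AP-1 match. Among the members not shown, windows of Il1rn and Il1r1 held a kB match, and windows of Il1a, Il1rn and Lif an AP-1 match. These matches were thus not particular to Il6 among the members. Among all 32851 promoter windows of this length, 4.65% held a kB match, 6.75% an AP-1 match, 9.56% a C/EBP match, 23.3% a PU.1 match and 12.4% a TATA box. These matches are descriptions of the letters and not evidence of binding.

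Library totals were 15088372 to 52650259 counts per bladder, and 3 counts, taken as the detection floor, corresponded to 0.0571 to 0.203 CPM (counts scaled to library size) after TMM (trimmed mean of M values) normalization. The floors cover counting error only, while the intervals of the fold changes include the spread between bladders. No sequencing batch is given by the labels or the methods. The tissue label was checked with marker genes. The summed level of 12 urothelial markers was 5479 to 6477 CPM in young and 5571 to 5961 CPM in untreated old bladders, and that of 8 smooth muscle markers was 28009 to 37920 and 27159 to 31284 CPM, with no marker of either list at 0 in every bladder of a group. These are whole bladders, so fewer cells of a type and less RNA per cell cannot be told apart. The mice came from an aging colony and were group housed, and which of them shared a cage is not given in the sources used here, so p-values measure the spread between the sampled bladders.

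Transcript levels differed widely among the members. Per kilobase of exon, the median level over the 32 bladders was 29.3 TPM (counts scaled to exon length and then to library size) for Il1r1, 27.9 TPM for Il33 and 17.7 TPM for Il18. Lif stood at 3.61 TPM, Il1rn at 2.39 TPM, Tnf at 1.75 TPM, Il10 at 1.25 TPM, Il1b at 1.16 TPM and Il1a at 0.914 TPM, so the classic early cytokines were all far below IL-33 and IL-18. Il6 was the lowest at 0.0875 TPM. On these scales Il1b, Il1a, Tnf and Il10 rested on few reads: 788, 551, 1148 and 799 counts in all over the 32 libraries, against 57592 for Il1r1 and 26172 for Il33. The exons of Il1a and Il1b overlap those of a gene on the opposite strand, Gm14023 by 222 bases and Il1bos by 25 bases. The strand setting of the counting is not given in the sources used here, so reads of these pairs may be mixed.

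**Figure D1:**
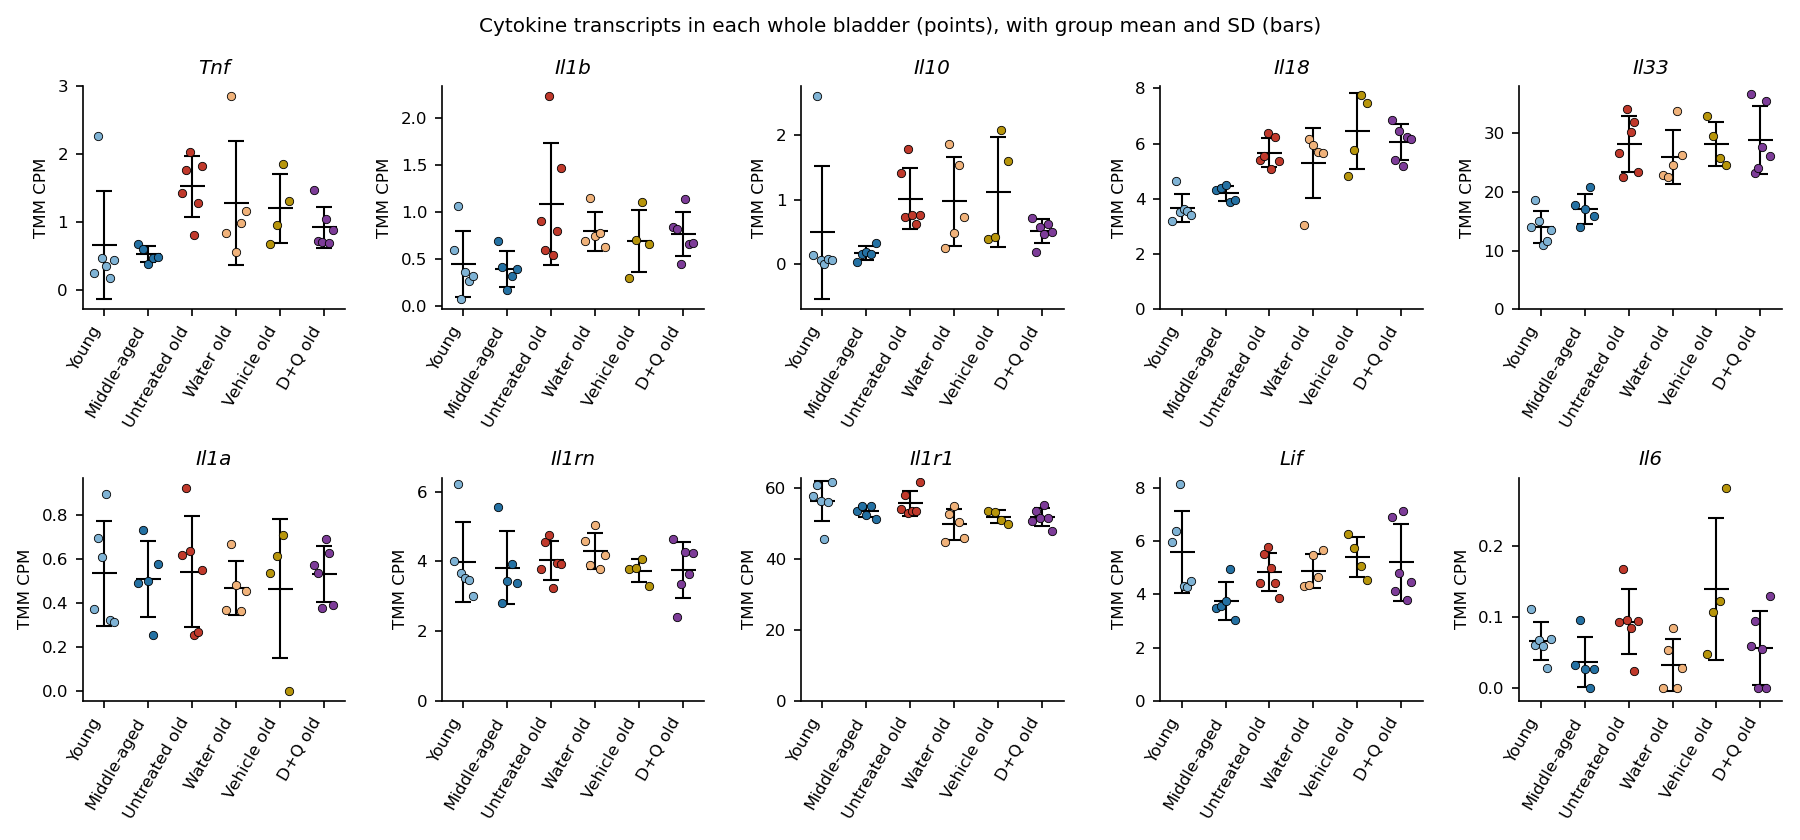
TMM-normalized CPM of the 10 genes in each of the 32 bladders, by group, with the group mean and SD as bars. Tnf, Il10, Il18 and Il33 in the 6 untreated old bladders lay above all 5 middle-aged bladders, and 1 young bladder, replicate 2, stood far above the other young bladders for Tnf (2.27 CPM) and Il10 (2.61 CPM).

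The first question was whether the cytokine transcripts rise in old age. Between untreated old and middle-aged bladders, Tnf, Il10, Il1b, Il33 and Il18 were all higher in old bladders, and no member was lower. These are 5 of the 9 members with enough counts to be tested by edgeR's quasi-likelihood test with Benjamini-Hochberg adjustment, where 24% of all 17156 genes tested were called, with 13% of all genes higher and 11% lower. The tenth, Il6, had too few counts. The median log2 fold change of the 9 members was 0.46, against -0.0047 for all genes tested. For 4 of them (Tnf, Il10, Il33 and Il18) the lowest old bladder lay above the highest middle-aged bladder, which was true of 7.61% of all genes. Since the set was chosen with earlier results of these data known, these shares describe it and do not test it.

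Tnf (ENSMUSG00000024401, chromosome 17 of mm10, 35199381 to 35202007, minus strand) encodes the TNF ligand, made mainly by macrophages and lymphocytes. Its 5 middle-aged bladders read 0.388, 0.481, 0.496, 0.604 and 0.688 CPM, and the 6 untreated old bladders had a lowest value of 0.821, a median of 1.60 and a highest of 2.04 CPM. All old bladders were above all middle-aged ones. The log2 fold change was 1.55 (SE 0.24, edgeR adjusted p = 0.00056).

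Il10 (ENSMUSG00000016529, chromosome 1, 131019845 to 131024974, plus strand) had the largest fold change of the set. The middle-aged bladders held 1, 5, 7, 6 and 12 counts, or 0.0328 to 0.331 CPM, so 1 of them was under the floor. The untreated old bladders held 0.630 CPM at the lowest, 0.762 at the median and 1.79 at the highest. The log2 fold change was 2.47 (SE 0.42, edgeR adjusted p = 0.0011), and its 95% interval of 1.56 to 3.37 was wide.

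Il1b (ENSMUSG00000027398, chromosome 2, 129364570 to 129371139, minus strand), which encodes the inflammasome-processed form of IL-1, read 0.166, 0.311, 0.386, 0.413 and 0.688 CPM in middle-aged bladders. In untreated old bladders its lowest value was 0.538, its median 0.849 and its highest 2.23 CPM. The groups overlapped, since the highest middle-aged bladder exceeded the lowest old ones. The log2 fold change was 1.5 (SE 0.43, edgeR adjusted p = 0.022). It rested on middle-aged replicate 3, without which it was 1.30 with an edgeR adjusted p of 0.0568.

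The more abundant Il33 and Il18 were also higher in old bladders, by smaller folds. Il33 (ENSMUSG00000024810, chromosome 19, 29925114 to 29960718, plus strand) read 14.02, 15.9, 17.1, 17.8 and 20.9 CPM in middle-aged bladders, and 22.5 (lowest), 28.4 (median) and 34.2 CPM (highest) in untreated old bladders. The old bladders were all above the middle-aged ones, with a log2 fold change of 0.74 (SE 0.12, edgeR adjusted p = 0.00089). Il18 (ENSMUSG00000039217, chromosome 9, 50554827 to 50581840, plus strand) read 3.87, 3.94, 4.32, 4.39 and 4.48 CPM in middle-aged bladders and 5.09, 5.47 and 6.38 CPM at the lowest, median and highest in untreated old bladders. These groups did not overlap either, and the log2 fold change was 0.46 (SE 0.083, edgeR adjusted p = 0.0017).

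The other IL-1 genes gave no call in the same comparison. Il1a (ENSMUSG00000027399, chromosome 2, 129299610 to 129309972, minus strand), whose product acts as an alarm signal from dying cells, had a mean of 0.511 ± 0.173 CPM (SD) over the 5 middle-aged bladders and of 0.543 ± 0.253 CPM (SD) over the 6 untreated old ones, a log2 fold change of 0.10 with a 95% interval of -0.65 to 0.86. The antagonist Il1rn (ENSMUSG00000026981, chromosome 2, 24336853 to 24351494, plus strand) averaged 3.82 ± 1.05 and 4.04 ± 0.555 CPM, with a log2 fold change of 0.10 and an interval of -0.25 to 0.45. The receptor Il1r1 (ENSMUSG00000026072, chromosome 1, 40225080 to 40317257, plus strand) was the most even member, with 53.4 ± 1.63 and 55.7 ± 3.53 CPM and an interval of -0.011 to 0.18. For Il1r1 the interval leaves room for little change in either direction, while the interval of Il1a spans changes as large as that of Il33.

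Lif (ENSMUSG00000034394, chromosome 11, 4257557 to 4272514, plus strand), the gp130 ligand with enough reads to test, was lowest in middle-aged bladders by the median. Its values were 4.28 (lowest), 5.24 (median) and 8.13 CPM (highest) in young bladders, 3.03, 3.47, 3.56, 3.76 and 4.95 CPM in middle-aged bladders and 3.88, 4.72 and 5.78 CPM in untreated old bladders. Neither step passed the test, and both came close. The log2 fold change was -0.58 (SE 0.18, edgeR adjusted p = 0.062) from young to middle-aged and 0.39 (SE 0.14, edgeR adjusted p = 0.057) from middle-aged to untreated old bladders. Middle-aged replicate 4, the highest of its group, decided both: without it the edgeR adjusted p was 0.041 for the first step and 0.013 for the second. The first step also passed without young replicate 4 (edgeR adjusted p = 0.035) or 5 (0.038), and the second without untreated old replicate 6 (0.035). DESeq2 called both, with adjusted p-values of 0.018 and 0.030, where it called 15.9% and 26.2% of all genes. Untreated old and young bladders overlapped, with a log2 fold change of -0.20 and a 95% interval of -0.56 to 0.16.

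Il6 (ENSMUSG00000025746, chromosome 5, 30013114 to 30019981, plus strand) had 73 counts over all 32 bladders and no more than 6 in any of them. Young bladders held 1 to 3 counts, middle-aged bladders 0 to 3, untreated old bladders 1 to 6, water-treated bladders 0 to 3, vehicle-treated bladders 2 to 6 and D+Q-treated bladders 0 to 6. A fold change is not given where a whole group is at or under 3 counts. Exact two-sided permutation tests on log2(CPM + 0.1), unadjusted over the 8 comparisons, gave p = 0.0866 for untreated old against middle-aged bladders and p = 0.266 against young bladders. The lowest exact permutation p of the 8, 0.0433, was for water-treated against untreated old bladders, at group means of 0.0334 and 0.0935 CPM. A difference of Il6 with age was not detectable at this depth.

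**Figure D2:**
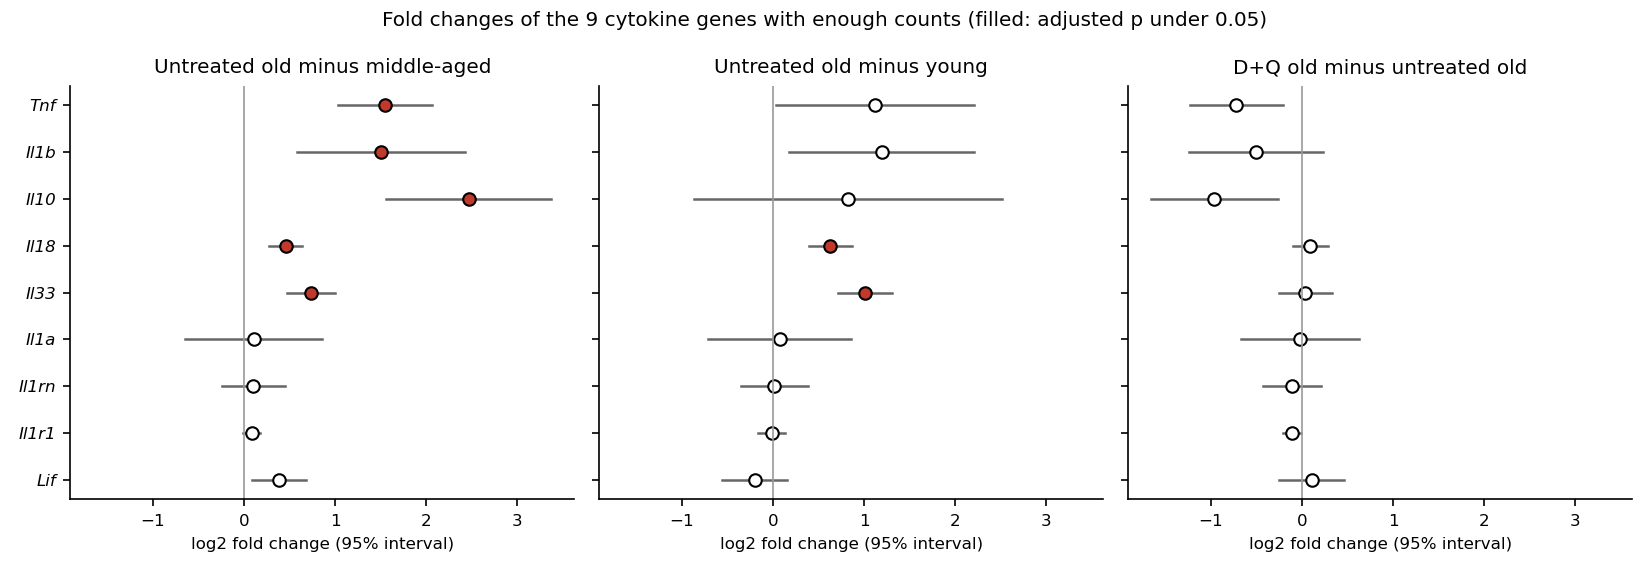
Log2 fold changes (points) with 95% intervals (lines) of the 9 tested genes from edgeR, in 3 comparisons, filled where the adjusted p is under 0.05. Tnf, Il1b, Il10, Il18 and Il33 are filled in untreated old against middle-aged bladders, Il18 and Il33 in untreated old against young bladders, and none for D+Q treatment compared with no gavage.

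The comparison of untreated old with young bladders gave a different list. Il33 and Il18 were higher in old bladders, and these were 2 of the 9 members tested, where 25.1% of all 16873 genes were called and 12.6% were called higher. Il33 read 10.99 (lowest), 13.8 (median) and 18.6 CPM (highest) in young bladders, all below the lowest old bladder at 22.5 CPM, with a log2 fold change of 1.01 (SE 0.14, edgeR adjusted p = 0.00016). Il18 read 3.19, 3.54 and 4.64 CPM in young bladders, also all below the old ones, as held for 6.61% of all genes, with a log2 fold change of 0.63 (SE 0.11, edgeR adjusted p = 0.00086). The young bladders are compared here with the same old bladders as the middle-aged ones were, so these calls are not independent of those above.

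Tnf, Il1b and Il10 did not pass against young bladders, and young replicate 2 decided this. Tnf read 0.176, 0.260, 0.359, 0.451 and 0.475 CPM in the other 5 young bladders and 2.27 CPM in replicate 2, above all 6 untreated old bladders. Il10 was at 0 to 4 counts in the other 5 young bladders and at 86 counts, or 2.61 CPM, in replicate 2, the highest value of the whole series. Il1b read 0.0678 to 0.594 CPM in the others and 1.06 CPM in replicate 2. With all young bladders the log2 fold changes were 1.12 for Tnf (edgeR adjusted p = 0.126), 1.19 for Il1b (0.083) and 0.82 for Il10 (0.496). DESeq2, which called 28.8% of all genes there, called Il1b as well. Without replicate 2 they were 2.21 (SE 0.31, edgeR adjusted p = 0.00029), 1.70 (SE 0.47, 0.019) and 3.57 (SE 0.49, 0.00024), so that 5 members were called higher, where 12.8% of all genes were. In that fit 4 of the 5 young bladders were at or under the floor for Il10, so the size of its fold change depends on very few reads.

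Young replicate 2 also stood apart in macrophage markers. The summed level of 14 macrophage and monocyte markers was 1470 CPM in it and 807 to 1006 CPM in the other 5 young bladders, against 779 to 930 CPM in middle-aged and 1107 to 1726 CPM in untreated old bladders. The sum of 8 neutrophil markers, of which Ly6g was at 0 in all young bladders, was 11.4 CPM in it and 2.87 to 4.89 CPM in the others. Its B cell marker sum, 6.43 CPM, was also the highest of the young bladders, against 3.53 to 5.05 CPM in the others, and lay far below the 80.4 to 245 CPM of untreated old bladders. Its T cell marker sum of 15.3 CPM lay within the range of the other young bladders, 12.7 to 20.3 CPM. The part of these cells in the cytokine values of that bladder was not tested.

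Middle-aged and young bladders gave no call among 8 members tested, where 10.8% of all 16754 genes were called. At an unadjusted p under 0.05 edgeR gave 1 member, Lif, where 27.2% of all genes were under it. Lif was also the 1 member that DESeq2 called. Il33 moved in the direction it took later, with a log2 fold change of 0.28 (95% interval -0.0014 to 0.56, edgeR adjusted p = 0.19). Il18 had a log2 fold change of 0.18 (interval -0.070 to 0.44). Il10 was too low for the fit, and the exact two-sided permutation test gave p = 0.957. Tnf had a log2 fold change of -0.42 with all young bladders and 0.67 without young replicate 2, and Il1b one of -0.30 and 0.21, neither of them called in either fit (7.07% of all genes were called without that bladder). Without young replicate 4, whose value was the lowest of the young bladders, Il1r1 was lower in middle-aged bladders by 0.15 on the log2 scale (edgeR adjusted p = 0.040).

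The 5 members called higher in untreated old against middle-aged bladders rose together with markers of several, though not all, immune cell types. Of the 14 macrophage and monocyte markers, 12 were higher and none lower by edgeR when untreated old bladders were compared with middle-aged ones, with a median log2 fold change of 0.64. All 8 B cell markers, all 9 T cell markers and 7 of 8 plasma cell markers were higher, as were 4 of 8 dendritic cell markers. Of the natural killer and innate lymphoid cell markers 3 of 8 were higher and 1 lower, with a median of -0.0073. Over all genes 13% were higher and 11% lower. Gata3 stands on both this list and the urothelial list, so the list is not specific to these cells. Of the 6 mast cell markers tested 1 was higher, with a median of -0.23. Of the neutrophil markers 1 of 8 could be tested, and it was higher. In contrast, 5 of 12 urothelial and 4 of 8 smooth muscle markers were lower, with none higher. Untreated old replicate 3, the highest of its group in Tnf (2.04 CPM) and Il10 (1.79 CPM), had the highest macrophage sum of all bladders, 1726 CPM. Vehicle-treated replicate 3, the highest of its group in both (1.86 and 2.08 CPM), came next at 1554 CPM. D+Q-treated replicate 1, the highest of its group in both (1.47 and 0.722 CPM), was not the highest in macrophage markers, at 1098 CPM. The part of these cells in the cytokine differences was not tested.

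**Figure D3:**
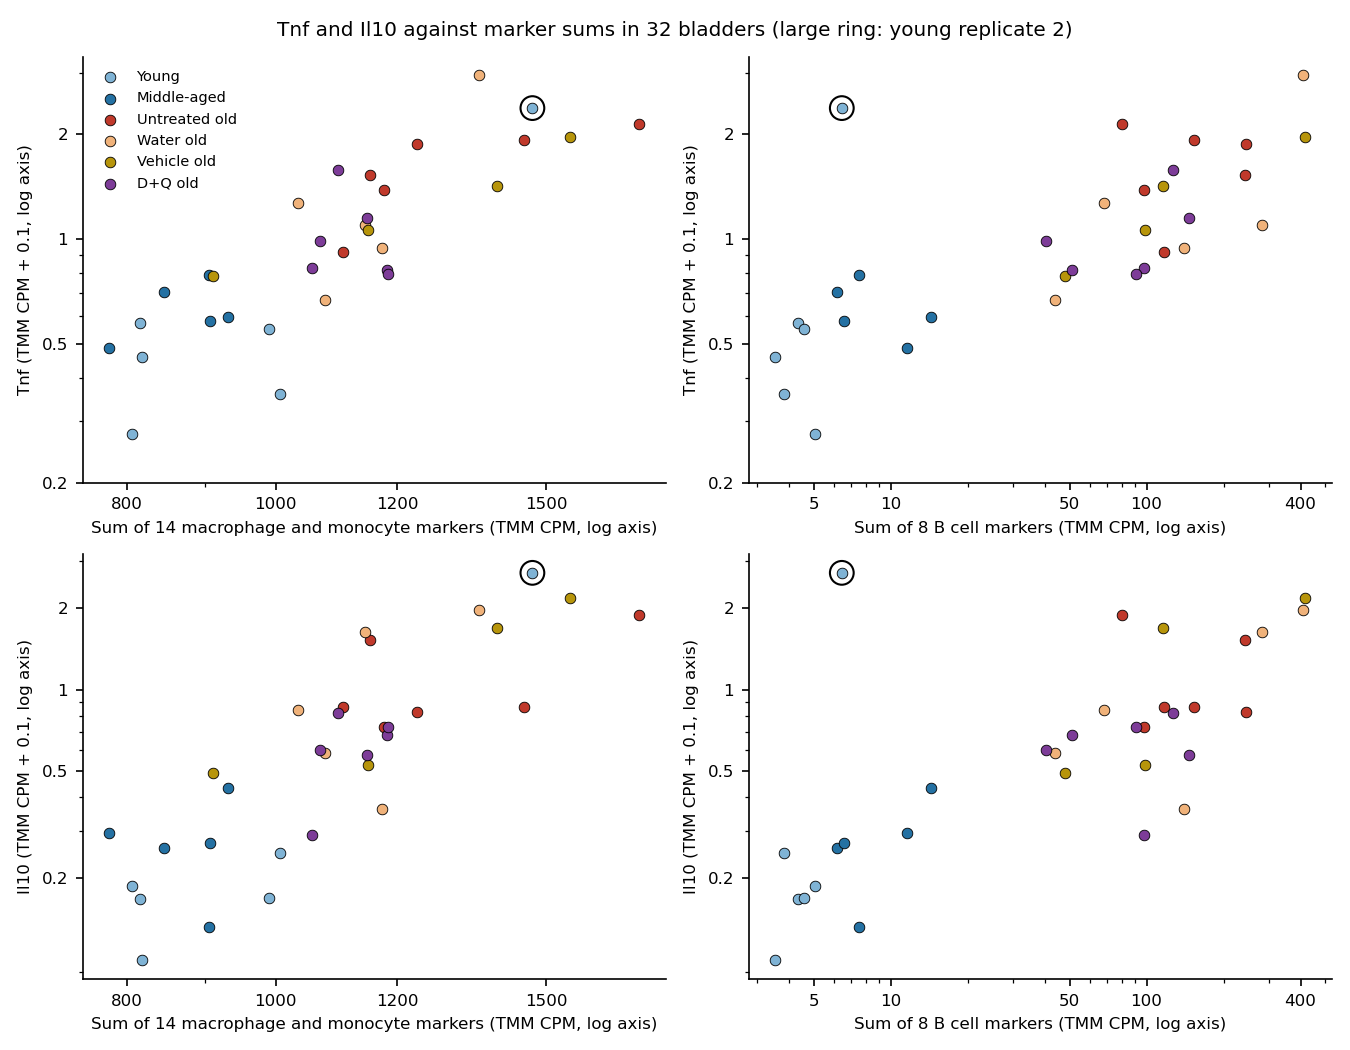
Tnf (top) and Il10 (bottom), as TMM CPM plus 0.1 on log axes, against the summed level of 14 macrophage and monocyte markers (left) and 8 B cell markers (right) in each of the 32 bladders, colored by group. Young replicate 2, ringed, lies with the old bladders on the macrophage axis (1470 CPM) and near the other young bladders on the B cell axis (6.43 CPM).

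The genes whose levels followed each member most closely over the 32 bladders were listed by Pearson's r of log2(CPM + 0.1) among 18093 genes, as a description in which the differences between groups and between libraries are included. For Il1b they were Ms4a6d (r = 0.91), Tnfaip8l2 (0.87) and Ctss (0.87), for Il10 Rac2 (0.89) and Ms4a6c (0.88), and for Tnf Lcp1 (0.89), Vav1 (0.89) and Acp5 (0.89). Rac2, Lcp1 and Vav1 are genes of blood-derived cells. For Il33 they were others: Fmo1 (0.91), Fmo2 (0.91) and Il7 (0.87), the first 2 of which encode flavin-containing monooxygenases and the last a stromal lymphocyte growth factor. For Il18 they were Rtn1 (0.86), Tnfaip8 (0.85) and Oosp1 (0.84). The closest genes of Il1r1 were Slc10a7 (0.83), Il1rl2 (0.79), the neighboring receptor gene of the same family, and Pdcl (0.76). The likeness was lower for Il1a (Nsun6, 0.78), Lif (Gm43150, 0.75) and Il1rn (Dnajc21, 0.61).

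The balance of the antagonist and its targets was described per bladder as the level of Il1rn divided by the summed level of Il1a and Il1b, all in TPM. The ratio was 0.992 to 2.07 (median 1.57) in young bladders, 0.861 to 2.43 (median 1.65) in middle-aged bladders and 0.575 to 1.42 (median 0.966) in untreated old bladders. The medians were 1.35 in water-treated, 1.31 in vehicle-treated and 1.07 in D+Q-treated bladders. The groups overlapped throughout, and the ratio was not tested.

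The machinery around the cytokines was described with 7 lists of pathway genes in untreated old against middle-aged bladders, where, over all genes, 13% were higher and 11% lower. Among 17 receptors, coreceptors and decoys, 9 were higher and 1 was lower, with a list median of 0.21 on the log2 scale. The largest rises were in Il18rap, the accessory chain of the IL-18 receptor (0.95), Il10ra, the ligand-binding chain for IL-10 (0.91), and Il18bp, the soluble decoy that neutralizes IL-18 (0.82). The IL-18 receptor chain Il18r1 rose as well, from 14.3 ± 0.973 CPM (SD, n = 5) to 22.3 ± 1.86 CPM (SD, n = 6). The 1 lower gene was Il6st, which encodes gp130, by 0.11 on the log2 scale. Of the 2 TNF receptors, Tnfrsf1b was higher (0.46, SE 0.11, edgeR adjusted p = 0.0078) and Tnfrsf1a gave no call (-0.029, SE 0.053). The IL-33 receptor Il1rl1 gave no call either (-0.21, SE 0.13). Against young bladders it was lower in both middle-aged (-0.63, edgeR adjusted p = 0.020) and untreated old bladders (-0.85, edgeR adjusted p = 0.00029). Its ligand gene Il33 was called higher in untreated old against young bladders (1.01) and was not called in middle-aged against young bladders (0.28). Il18r1, Tnfrsf1a, Tnfrsf1b and Il1rl1 were named for their roles after their values had been seen.

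Of 12 inflammasome and processing genes, 7 were higher and none lower, with a median of 0.42. The largest rises were in the sensors Mefv (1.16), Aim2 (0.999) and Nlrc4 (0.93). Casp1, which encodes the protease that cleaves IL-1β and IL-18, rose from 4.83 ± 0.441 to 9.03 ± 1.26 CPM, a log2 fold change of 0.93 (SE 0.11, edgeR adjusted p = 7.2e-05). The sensor Nlrp3 gave no call (0.33, SE 0.17, edgeR adjusted p = 0.17). Casp1 and Nlrp3 were also named after their values had been seen.

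Of 13 adaptors and kinases of the IL-1 and TNF receptors, 4 were higher and 1 lower, with a median of 0.11: the ubiquitin ligase gene Birc3 (0.47), Irak3, an inhibitory member of the IRAK family (0.38), and Irak2 (0.15) led the rises, and Tab1 was lower by 0.17 on the log2 scale. Of 8 genes of NF-κB subunits and its kinase complex, 5 were higher, led by Rel (0.47), Nfkb2 (0.43) and Nfkb1 (0.27). Of 9 feedback genes of NF-κB and mRNA decay, 5 were higher and none lower, led by the inhibitor Nfkbie (0.71), Tnfaip3, which encodes the deubiquitinase A20 (0.71), and Bcl3 (0.61). Of 6 genes of the JAK-STAT3 arm 5 were higher, with the feedback inhibitors Socs3 (1.09) and Socs1 (0.82) ahead of Stat3 (0.20). Of 18 other ligands of these families 8 could be tested and 3 were higher: the lymphotoxin genes Ltb (2.83) and Lta (2.25), which lie beside Tnf and are made by lymphocytes, and Osm (1.5), a macrophage and neutrophil ligand of the gp130 family. Several of these genes, Ltb and Il10ra among them, are known to be expressed mainly in leukocytes, whose markers rose in the same comparison. The part of leukocytes in the differences of these genes was not tested.

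**Figure D4:**
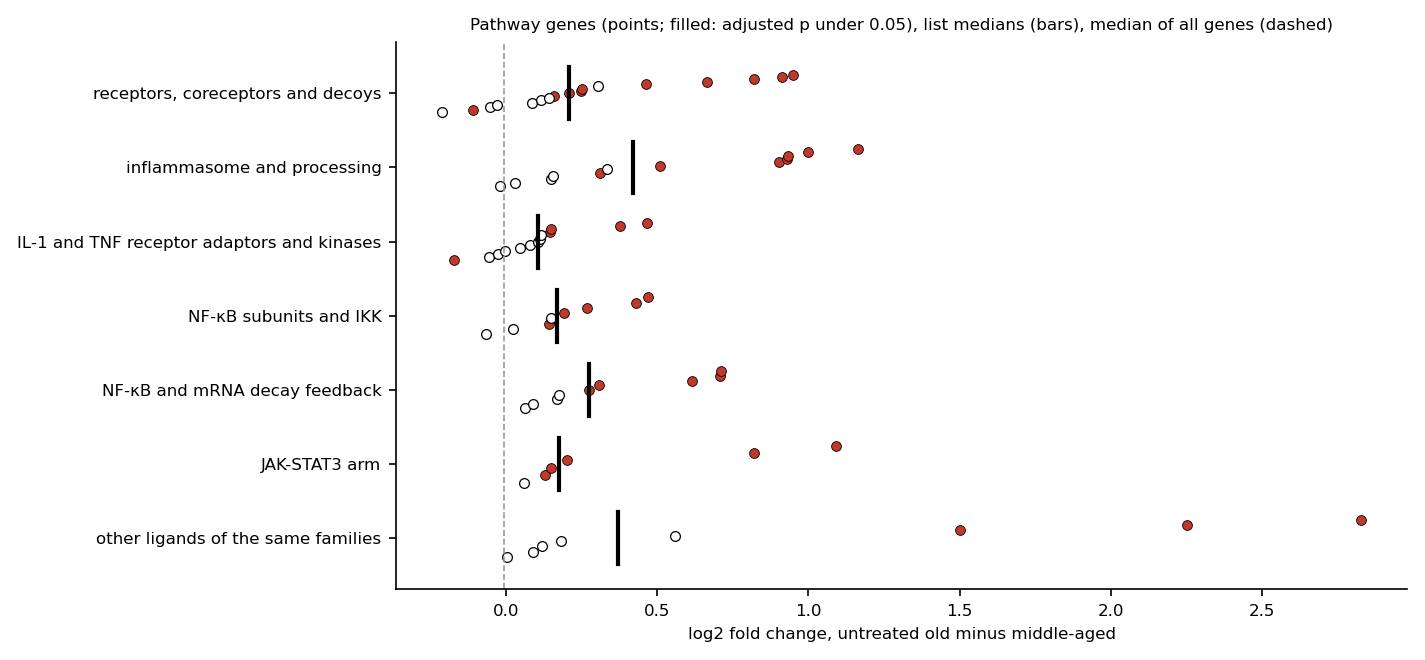
Log2 fold changes of untreated old against middle-aged bladders for the tested genes of 7 pathway lists (points, filled where the edgeR adjusted p is under 0.05), with the list medians as bars and the median of all genes as a dashed line. List medians run from 0.11 for the adaptors and kinases to 0.42 for the inflammasome genes, and Ltb is the farthest point at 2.83.

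Against young bladders the same lists gave fewer calls in 5 of the 7. Receptors gave 6 higher and 3 lower, inflammasome genes 6 higher, adaptors 1 higher and 2 lower, NF-κB genes 5 higher, feedback genes 3 higher, JAK-STAT3 genes 2 higher and other ligands 4 higher and 1 lower, where 12.6% of all genes were higher and 12.4% lower. Between middle-aged and young bladders the 7 lists together gave 1 higher gene, Ikbkg (0.20), and 4 lower genes, Il1rl1 (-0.63), Bcl3 (-0.43), Nfkbia (-0.29) and Tnfrsf1a (-0.17), where 4.96% of all genes were higher and 5.85% lower.

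Gavage itself was examined next. Water-treated against untreated old bladders gave no call among 9 members, where 1% of 17250 genes were called. Vehicle-treated against untreated old bladders gave none either, and there no gene at all was called of 17440 (0%). At an unadjusted p under 0.05 each comparison gave 1 of 9 members, where 16% and 8.39% of all genes were. DESeq2 called 703 and 132 genes (4.08% and 0.757%), with no member among them. In both comparisons the member was Il1r1, which read 44.8, 45.9, 50.4, 52.7 and 55.1 CPM with water and 49.9, 51.1, 53.3 and 53.5 CPM with vehicle, against 53.0 (lowest), 53.8 (median) and 61.8 CPM (highest) without gavage. Its log2 differences were -0.18 (SE 0.061, edgeR adjusted p = 0.19) and -0.11 (SE 0.048, edgeR adjusted p = 0.59).

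The gavage controls held both high and low bladders for Tnf and Il10. With water, Tnf read 0.567, 0.841, 0.994, 1.17 and 2.86 CPM and Il10 0.263, 0.482, 0.739, 1.54 and 1.87 CPM. With vehicle, Tnf read 0.683, 0.963, 1.32 and 1.86 CPM and Il10 0.390, 0.428, 1.60 and 2.08 CPM. Both sets overlapped the untreated old bladders, and the log2 fold change of Tnf was -0.25 (95% interval -1.06 to 0.56) with water and -0.35 (-1.03 to 0.33) with vehicle. The 2 bladders highest in Il10 with water, replicates 2 and 4, also had the highest B cell marker sums of that group, 410 and 283 CPM against 43.8 to 140 CPM in the other 3. This did not hold in every group. Untreated old replicate 3, the highest of its group in Il10 (1.79 CPM), had the lowest B cell sum there, 80.4 CPM. D+Q-treated replicate 1, the highest in Il10 (0.722 CPM), had 127 CPM, below replicate 4 at 146 CPM. The highest Il10 and B cell values fell in the same bladder in the young, middle-aged and vehicle-treated groups. The part of B cells in Il10 was not tested.

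The last question was whether D+Q treatment lowers the cytokine transcripts of old bladders. None of the 9 tested members was called when D+Q-treated were compared with untreated old bladders, and neither was any gene of 17037 (0%). DESeq2 called 185 genes (1.09%) and none of the members. At an unadjusted p under 0.05 edgeR gave 3 of the 9 members, all lower with D+Q, where 12.9% of all genes were under it and 6.67% were lower. These were Tnf, Il10 and Il1r1.

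Tnf read 0.694 (lowest), 0.807 (median) and 1.47 CPM (highest) in D+Q-treated bladders, with 5 of the 6 at or under 1.05 CPM, and the groups overlapped. The log2 difference was -0.72 (95% interval -1.23 to -0.21, edgeR adjusted p = 0.30). Il10 read 0.189, 0.539 and 0.722 CPM at the lowest, median and highest with D+Q, and its log2 difference was -0.96 (-1.66 to -0.27, edgeR adjusted p = 0.31). For Il1r1 it was -0.11 (-0.21 to -0.0086, edgeR adjusted p = 0.36), about the size seen with vehicle. Il1b had a log2 difference of -0.50 with an interval of -1.24 to 0.23. Neither Tnf nor Il10 passed the adjusted threshold.

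Il33 and Il18, the 2 members called higher in untreated old bladders against both younger groups, gave no call with D+Q. Il33 read 23.3 (lowest), 26.9 (median) and 36.8 CPM (highest) with D+Q, a log2 difference of 0.038 from untreated old bladders with an interval of -0.25 to 0.33. Il18 read 5.18, 6.22 and 6.86 CPM, a log2 difference of 0.093 with an interval of -0.096 to 0.28. Neither interval reaches down to a fall of the size of the difference between untreated old and middle-aged bladders (0.74 for Il33 and 0.46 for Il18).

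D+Q-treated bladders were also set against the gavage controls, which share the D+Q samples with the comparison above. Against vehicle no gene of 17267 was called (0%), 4.18% were at an unadjusted p under 0.05, and DESeq2 called 11 genes (0.0637%). Against water no gene of 17161 was called (0%), 7.82% were at an unadjusted p under 0.05, and DESeq2 called 69 (0.402%). No member was among the DESeq2 calls. In each of them the 1 member with an unadjusted p under 0.05 was Il10, with log2 differences of -1.10 against vehicle (95% interval -2.20 to -0.013, edgeR adjusted p = 0.99) and -0.97 against water (-1.91 to -0.021, edgeR adjusted p = 0.63). Tnf differed by -0.37 (-1.05 to 0.31) against vehicle and by -0.47 (-1.27 to 0.33) against water. The highest D+Q value of Il10, 0.722 CPM, lay under 2 of the 4 vehicle-treated and 3 of the 5 water-treated bladders. The other control bladders, at 0.390 and 0.428 CPM with vehicle and 0.263 and 0.482 CPM with water, lay under the D+Q median of 0.539 CPM. The groups therefore overlapped.

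Macrophage, T cell and B cell markers lay lower with D+Q than in untreated old bladders, as Tnf and Il10 did, with no marker called. The macrophage marker sum was 1056 to 1183 CPM in D+Q-treated and 1107 to 1726 CPM in untreated old bladders, the T cell sum 34.9 to 62.9 and 55.1 to 121 CPM, and the B cell sum 40.4 to 146 and 80.4 to 245 CPM. The list medians were -0.24, -0.65 and -0.73 on the log2 scale. With water the same medians were -0.21, -0.49 and 0.31, and with vehicle -0.049, -0.54 and 0.096, against the same untreated old bladders. Set directly against water, D+Q gave medians of -0.020, -0.11 and -1.04, and against vehicle -0.15, -0.20 and -0.89. Against untreated old bladders the D+Q median was -0.25 for dendritic cell markers and -0.022 for natural killer and innate lymphoid cell markers. Neutrophil and mast cell markers did not lie lower with D+Q. The median was 0.55 for the 3 neutrophil markers tested and 0.056 for the 6 mast cell markers tested. The plasma cell sum had a group median of 931 CPM with D+Q and 820 CPM without gavage, although the median log2 difference of its 8 markers was -0.15. Most of that sum came from Sdc1, Jchain and Xbp1 (means of 391, 259 and 182 CPM with D+Q), so it says little about the other markers. The part of all these cells in the lower Tnf and Il10 values was not tested. Of the 7 pathway lists, no gene was called for D+Q treatment compared with no gavage.

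In order of the group medians, Tnf ran from young through middle-aged, D+Q-treated, water-treated and vehicle-treated to untreated old bladders, and the only gap between neighbors without overlap was from middle-aged (highest 0.688 CPM) to D+Q-treated bladders (lowest 0.694 CPM). Both of these bladders held 21 counts, so this gap reflects the scaling to library size only. Il33 ran from young and middle-aged to water-treated, D+Q-treated, vehicle-treated and untreated old bladders, with the only gap between middle-aged (highest 20.9 CPM) and water-treated bladders (lowest 22.5 CPM). Il18 ran from young and middle-aged to untreated old, water-treated, D+Q-treated and vehicle-treated bladders, with the gap between middle-aged (highest 4.48 CPM) and untreated old bladders (lowest 5.09 CPM). For the other 7 members all neighboring groups overlapped.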

How the data were processed

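RNA was sequenced from 32 whole mouse bladders, each a library of its own. The authors prepared the libraries with a stranded total RNA kit, aligned the reads to mm10 with STAR 2.7.3, obtained gene counts with featureCounts and deposited these counts raw, with no normalization, together with each gene's exon length in bases, the other unit the authors deposited. The second table the authors deposited holds log2 values, each equal to the log2 of (count + 1) divided by exon length, after scaling to a linear sum of 100000 in each bladder (100% of values within 0.001), and was not used for tests. Groups were taken from the labels.

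Member and list genes were matched by Ensembl identifier through gene names, with 1 of 208 list genes unmatched. The members and lists were chosen with earlier results of these data known. Pathway and marker genes are named by a fixed rule, up to 3 with the largest rise and 3 with the largest fall among those called in untreated old against middle-aged bladders. Outside this rule, all pathway genes called between middle-aged and young bladders are named. Other exceptions are stated in the text, and 1 gene whose level followed a member is not reported here.

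CPM used TMM factors over all 32 libraries, and TPM the deposited exon lengths. Each of 8 comparisons was fitted on its 2 groups with edgeR 4.0.16 in R 4.3.3 (TMM, filterByExpr, quasi-likelihood test, Benjamini-Hochberg adjustment over all genes, threshold 0.05), and its code was tested on simulated data. Several comparisons share the untreated old or the D+Q-treated bladders. Members too low for the fit had exact two-sided permutation tests of log2(CPM + 0.1). The alternatives were DESeq2 1.42.0, RLE normalization, no filter, a minimum of 10 counts in each bladder, a joint fit of all 6 groups, the replicate number as a block, a pseudocount of 0.5 and each bladder left out in turn. Library totals of 15088372 to 52650259 counts put 3 counts at 0.0571 to 0.203 CPM. No pair of libraries was identical. Promoter sequences are from RefSeq on GRCm38.p6, in which 9 of the 10 members were matched.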

Additional observations from a re-analysis of the deposited data

Results flagged for a closer look

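Single bladders that stood apart from the rest of their group, by the gap to the nearest other bladder relative to the group's range, were found in 8 of 60 groups of values. Chance gives about 1 in 20 for independent, normally distributed values. The genes share the same bladders and some rest on few counts, so the number found is not a test of an excess. Young replicate 2 was the highest of its group for Il10 (2.61 CPM), Tnf (2.27 CPM), Il1rn (6.22 CPM) and Il18 (4.64 CPM). Water-treated replicate 2 was the highest of its group for Tnf (2.86 CPM) and Il1b (1.15 CPM), and its macrophage marker sum (1356 CPM) and B cell marker sum (410 CPM) were also the highest of the water-treated bladders. Water-treated replicate 1 was the lowest of its group for Il18 (3.05 CPM), below all young bladders. Young replicate 4 was the lowest young bladder for Il1r1 (45.7 CPM).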

How the results depend on the processing

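Of the results called in the report, Tnf, Il10, Il33 and Il18 between middle-aged and untreated old bladders and Il33 and Il18 in untreated old against young bladders stayed called under every alternative in which they were tested. Requiring at least 10 counts in every bladder left Il1b and Il10 untested, so that 3 members were called in the former. Fitting all 6 groups together called 2519 genes there and 2858 between middle-aged and young bladders. Between middle-aged and young bladders, DESeq2 and the fit of all 6 groups each called 1 member, Lif. Between untreated old and young bladders Il1b was called by DESeq2 (adjusted p = 0.044) and in the fit of all 6 groups (edgeR adjusted p = 0.024). In water-treated against untreated old bladders 703 genes were called by DESeq2, 99 without a filter and 0 in the fit of all 6 groups. DESeq2 called 132 genes for vehicle-treated and 185 for D+Q-treated compared with untreated old bladders, and 11 and 69 for D+Q-treated against vehicle- and water-treated bladders. The cause of these differences was not tested.

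What the replicate numbers mark is not given in the sources used here, so a shared batch is not known. The numbers used are those of the sample titles. Some middle-aged, water-treated and vehicle-treated bladders carry another number in the headers of the deposited counts. Pairs and blocks with these 3 groups may therefore join bladders of unlike original number, and cannot show whether a batch was shared. Same-numbered bladders did not deviate together in all pairs of any comparison (r from -0.30 to 0.16), so the block is given here only. Bladders most like their own number in the other group were 3 of 5 for middle-aged against young and 3 of 5 for untreated old against middle-aged. They were 3 of 6 for untreated old against young bladders, and 0 or 1 in the other comparisons. These numbers were not tested against chance. With the replicate number as a block, 716 genes were called between middle-aged and young bladders, 0 in water-treated against untreated old bladders and 1 in D+Q-treated against water-treated bladders. Il1b between untreated old and middle-aged bladders had a log2 fold change of 1.29 (edgeR adjusted p = 0.082), Lif in the same comparison 0.45 (0.033), and Tnf between untreated old and young bladders 1.52 (0.029). Under the block the sign changed, with no call, for Il10 in water-treated (-0.17) and vehicle-treated (-0.29), Lif in water-treated (-0.056) and Il1a in D+Q-treated compared with untreated old bladders (0.022), and for Il1rn (-0.061), Il33 (-0.017) and Lif (0.067) in D+Q-treated against vehicle-treated bladders.

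The sign of Il10 in water-treated against untreated old bladders also changed with DESeq2 (-0.040), no filter (-0.0095) and all 6 groups (-0.014), and that of Il1r1 in D+Q-treated against vehicle-treated bladders with RLE (-0.0028), DESeq2 (-0.0043) and at least 10 counts (-0.00028). Leaving out each bladder in turn, the members called numbered 0 to 2 for middle-aged against young, 4 to 6 for untreated old against middle-aged, 2 to 5 for untreated old against young bladders and 0 in the others. All genes called numbered 728 to 2794, 3391 to 4097, 3466 to 4540, 37 to 199 for water-treated and 0 for vehicle- or D+Q-treated compared with untreated old bladders, and 0 and 0 to 3 for D+Q-treated against vehicle- and water-treated bladders. No called member changed sign. Uncalled log2 fold changes that crossed 0 ran as follows. In middle-aged against young Il1a (-0.19 to 0.15), Il1b (-0.58 to 0.21), Il1rn (-0.25 to 0.11), Tnf (-0.65 to 0.67). In untreated old against middle-aged Il1a (-0.12 to 0.27). In untreated old against young Il1a (-0.14 to 0.25), Il1rn (-0.057 to 0.20), Il1r1 (-0.069 to 0.011). In water against untreated old Il1a (-0.38 to 0.012), Il18 (-0.17 to 0.027), Il10 (-0.34 to 0.24), Lif (-0.057 to 0.060). In vehicle against untreated old Il1a (-0.38 to 0.19), Il33 (-0.081 to 0.057), Il10 (-0.41 to 0.43). In D+Q against untreated old Il1a (-0.17 to 0.19), Il33 (-0.042 to 0.10), Lif (-0.0030 to 0.18). In D+Q against vehicle Il1a (-0.22 to 0.36), Il1b (-0.11 to 0.51), Il1rn (-0.063 to 0.11), Il1r1 (-0.029 to 0.018), Il18 (-0.21 to 0.017), Il33 (-0.041 to 0.12), Lif (-0.17 to 0.026). In D+Q against water Il1b (-0.20 to 0.12), Tnf (-0.66 to 0.061), Lif (-0.0094 to 0.17). Il6, Il1a, Il1b, Il10 and Tnf rest on the fewest counts.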
